A study of Homo sapiens with 51 samples.

Results

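H1 is an established line of human embryonic stem cells. H1 cultures that had received Activin with BMP4 for 72 h were compared with cultures that had received them for 48 h. The comparison rests on 6 of the 51 RNA-seq libraries of the series, 3 at each time, taken by the treatment and time in their column names. Both groups had Activin at 100 ng/mL and BMP4 at 10 ng/mL. The second condition of the series had BMP4 alone at 50 ng/mL, and its 3 libraries at 72 h and 3 at 48 h serve below as the comparison for changes over the same day. All of these cultures grew in TeSR E5 medium that also held insulin at 3.2 µM, FGF2 at 20 ng/mL and the compound labelled LY29004 at 1 µM. A single cell line was used, and the labels do not name separate cultures for the 3 replicates, so the p-values below reflect only how far these samples lie apart, which may be technical.

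Activin binds the receptors that the embryo's own signal, NODAL, uses, and a strong signal through them directs pluripotent cells towards endoderm, the layer that forms the gut, liver and pancreas. On that path cells pass through a state like the primitive streak, which is marked by the T-box factor TBXT, and then switch on forkhead, GATA, SOX and hepatocyte nuclear factors. BMP4 acts through other receptors and is known to favour mesoderm and extraembryonic fates.

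The day was marked by a gain of endoderm transcripts and a loss of streak transcripts. HNF4A, a nuclear receptor that governs liver and gut epithelium, had 1055 counts over the 3 libraries at 72 h and 8 counts over those at 48 h. Levels are given as CPM, counts scaled to library size by TMM factors, and are compared only within a gene. TBXT fell to 26.9 ± 3.38 CPM at 72 h, against 112 ± 0.626 CPM at 48 h (SD, n = 3 each). Of 19603 genes tested, 943 were called higher and 565 lower at 72 h, where called means a Benjamini-Hochberg adjusted p under 0.05 over all genes in edgeR's quasi-likelihood test together with at least a 2-fold change. These are 4.81% and 2.88% of the genes tested, 7.69% in all. Many were scarce: 289 higher and 238 lower had a mean under 1 CPM in the higher group, and 396 and 222 had 1 to 10 CPM. Protein-coding genes were 78.0% of those higher and 56.1% of those lower, against 78.5% of genes tested. At adjusted p alone 4895 genes (25.0%) were higher and 4066 (20.7%) lower, and the median log2 fold change over all genes was 0.02.

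HNF4A and TBXT stand for the gain and the loss, and the stretch of genome around the annotated start of each is shown for that reason. Counts were per gene and do not show where its transcripts began. The sequences are those of RefSeq for GRCh38.p14, 300 bases each, read 5′ to 3′ along the gene's strand. HNF4A lies on the plus strand of chromosome 20 and its window is chr20:44355449-44355748, whereas TBXT lies on the minus strand of chromosome 6 with the window chr6:166168606-166168905. Capitals mark the letters AGATAA, the core that GATA factors are known to prefer, and the other motifs searched on both strands were TGTTTAC, preferred by forkhead factors, and AGGTGTGA, preferred by T-box factors.
HNF4A: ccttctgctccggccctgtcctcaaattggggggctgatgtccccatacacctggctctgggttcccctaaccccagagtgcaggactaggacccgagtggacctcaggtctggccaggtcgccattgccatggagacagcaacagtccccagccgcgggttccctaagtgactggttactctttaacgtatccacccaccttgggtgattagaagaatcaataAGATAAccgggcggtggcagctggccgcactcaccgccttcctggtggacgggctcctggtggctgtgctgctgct
TBXT: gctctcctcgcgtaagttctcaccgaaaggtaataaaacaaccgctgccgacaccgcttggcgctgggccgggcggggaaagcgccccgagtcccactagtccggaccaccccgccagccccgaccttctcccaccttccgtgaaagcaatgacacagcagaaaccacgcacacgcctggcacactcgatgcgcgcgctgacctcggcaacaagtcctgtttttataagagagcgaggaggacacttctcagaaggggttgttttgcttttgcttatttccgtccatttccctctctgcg
The HNF4A window held a single match, to AGATAA, and the TBXT window held no match to the letters searched. Among windows of the same length, AGATAA was in 10.1% of 596 genes called higher, in 8.06% of 273 genes called lower in 5.60% of 13134 genes tested that had a window and in 10.5% of all 27305 RefSeq windows. TGTTTAC was in 4.53% of the genes called higher, 4.03% of those called lower, 2.41% of those tested and 3.41% of all windows, and AGGTGTGA in 0.503%, 1.47%, 0.754% and 0.982%. A match of letters is a description of the window and not a binding site.

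The 6 libraries held 22.8 M to 27.2 M counts, within the 22.8 M to 30.4 M of the series. The libraries of 48 h were not equally alike: replicates 1 and 3 differed by 3.798 times the sampling noise (chi-square per degree of freedom over genes), whereas replicate 2 differed from them by 13.81 and 13.07 times, and the pairs at 72 h differed by 10.67 to 13.71 times. Without replicate 2 of 48 h, 895 genes were called higher and 593 lower. The share of counts from mitochondrially encoded mRNAs was 0.6921% ± 0.158 at 72 h and 1.944% ± 0.352 at 48 h (SD, n = 3 each). With BMP4 alone the share was 0.9175% ± 0.305 at 72 h and 1.903% ± 0.714 at 48 h. This shift moved with time in both conditions, and its part in the other results was not tested. In cultures measured whole, a change in the number of cells of a type cannot be told apart from a change in RNA per cell.

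**Figure D1:**
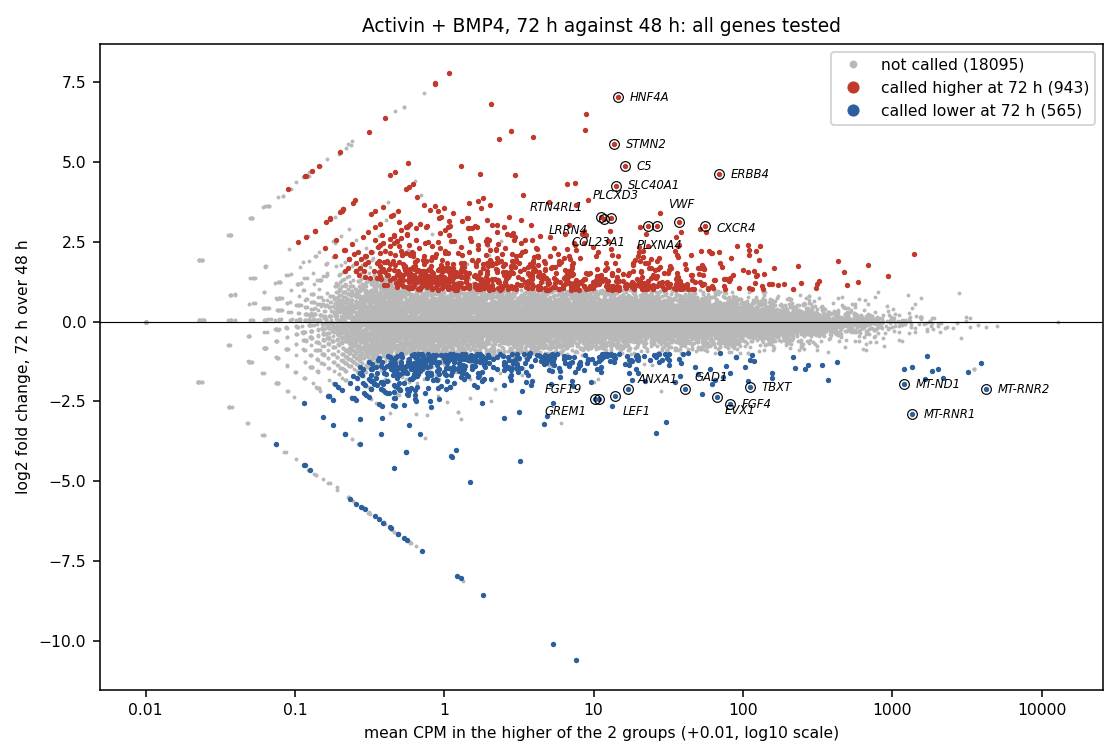
Each point is a gene, with its mean level in the higher of the 2 groups on the horizontal axis (CPM, log10 scale) and its log2 fold change, 72 h over 48 h, on the vertical axis. Red points are the 943 genes called higher, blue points the 565 called lower, and circles mark genes named for the largest changes, among which HNF4A stands at 7.05.

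The definitive endoderm list was the one with the largest share of members called higher. Of 19 tested members of 20, 11 were called higher and none lower, against 4.81% and 2.88% of all genes tested. Their median log2 fold change was 1.19. All 19 had their 3 libraries at 72 h above their 3 libraries at 48 h, a separation found in 27.4% of all genes tested. This list and the others were chosen with earlier results of these data known, so their counts describe the lists and are not a test. HNF4A measured 15.6, 15.99 and 12.0 CPM in the libraries of 72 h, against 0.0786, 0.0831 and 0.150 CPM in those of 48 h. The groups were far apart, and the log2 fold change was 7.05 (SE 0.32, adjusted p = 2.8e-19 by edgeR's quasi-likelihood test). FOXA2, a forkhead factor that opens chromatin in endoderm, measured 31.3, 27.9 and 23.0 CPM at 72 h and 6.21, 7.44 and 7.17 CPM at 48 h. The groups did not overlap, and the log2 fold change was 1.98 (SE 0.16, adjusted p = 2.27e-13 by edgeR's quasi-likelihood test).

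CXCR4, the chemokine receptor by which endoderm cells are often sorted, measured 68.0, 55.4 and 42.9 CPM at 72 h, against 6.45, 7.11 and 7.32 CPM at 48 h. The lowest library of 72 h was well above the highest of 48 h, while the spread within 72 h was the wider one, and the log2 fold change was 2.99 (SE 0.17, adjusted p = 1.91e-18 by edgeR's quasi-likelihood test). NTN4, which encodes a netrin of basement membranes, rose 4.27-fold, HHEX, a homeobox factor of the anterior endoderm and liver, 3.00-fold, and GATA4, a zinc finger factor of endoderm and heart, 2.67-fold. FOXA1, EPSTI1, ELMO1 and CD177 were also called higher.

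Several well known endoderm genes were already high at 48 h and moved less. SOX17, an early endoderm factor, measured 197, 171 and 136 CPM at 72 h and 103, 96.8 and 105 CPM at 48 h. All libraries of 72 h were above those of 48 h, but the 1.65-fold difference was below the 2-fold threshold. CER1, a secreted inhibitor of NODAL, BMP and WNT made by anterior endoderm, averaged 2789 ± 101 CPM at 72 h and 1494 ± 56.3 CPM at 48 h (SD, n = 3 each), a log2 fold change of 0.90 (SE 0.08). GATA6, a zinc finger factor of endoderm, averaged 255 ± 40.4 CPM at 72 h and 169 ± 2.496 CPM at 48 h. KIT, PRDM1 and SHISA2 lay just under the threshold at 1.95-fold, 1.97-fold and 1.96-fold, and with a single library left out the count of called members ran from 11 to 13. The smallest changes of the list were those of FOXA3, at 1.23-fold, and RIPK4, at 1.16-fold with an edgeR quasi-likelihood adjusted p of 0.187.

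**Figure D2:**
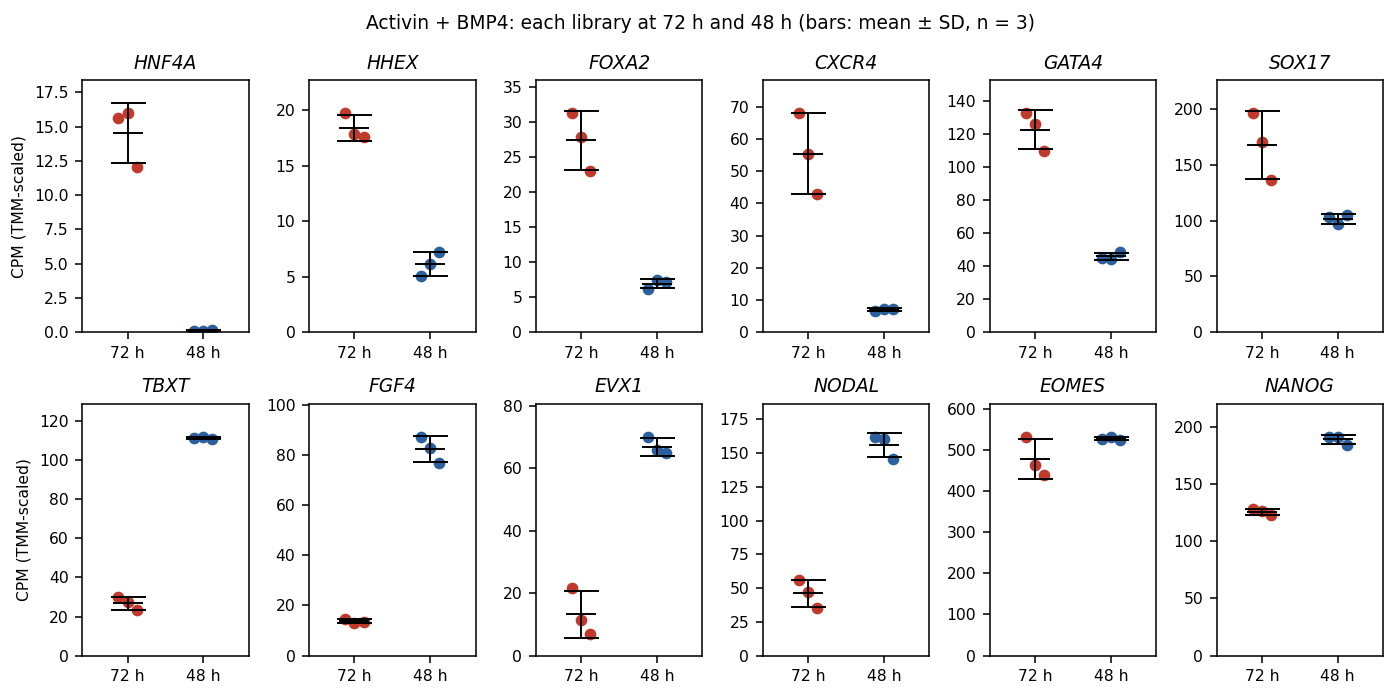
Points give each library's level (CPM scaled by TMM factors), with 72 h on the left and 48 h on the right of each panel and bars for the mean ± SD of 3 libraries. The upper row holds endoderm genes whose libraries of 72 h all lie above those of 48 h, with GATA4 at 123 ± 11.8 CPM at 72 h against 46.0 ± 2.35 CPM at 48 h, and in the lower row TBXT, FGF4, EVX1 and NODAL are lower at 72 h while the libraries of EOMES overlap.

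Primitive streak genes moved the other way, though not as a block. Of 18 members tested, 7 were called lower, 1 was called higher and 10 were not called, with a median log2 fold change of -0.80. Over all genes tested 2.88% were called lower and 4.81% higher. TBXT measured 30.0, 27.3 and 23.3 CPM at 72 h, against 112, 112 and 111 CPM at 48 h. The groups did not overlap, and the log2 fold change was -2.06 (SE 0.10, adjusted p = 1.1e-20 by edgeR's quasi-likelihood test). FGF4, a growth factor of pluripotent and streak cells, measured 14.5, 12.9 and 13.5 CPM at 72 h and 87.2, 82.6 and 76.8 CPM at 48 h. EVX1, a homeobox factor of the posterior streak, measured 21.5, 11.2 and 6.86 CPM at 72 h and 70.1, 65.8 and 64.7 CPM at 48 h. FGF4 was even among the libraries of 72 h, EVX1 was not, and both groups stood apart with log2 fold changes of -2.59 (SE 0.10) and -2.35 (SE 0.19). EVX1 shares 15.9% of its exonic bases with an antisense gene, and whether reads were counted by strand is not given in the sources used here.

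CDX1, a homeobox factor of the posterior embryo, fell to 0.498 ± 0.101 CPM at 72 h, against 4.62 ± 0.262 CPM at 48 h (SD, n = 3 each). Its relative CDX2 is listed with gut, amnion and trophoblast genes and counts in each of those lists. It fell to 4 counts over the 3 libraries at 72 h, against 84 at 48 h. The WNT target SP5, the ligand WNT3A and NODAL itself complete the 7 that were called lower. MIXL1, a homeobox factor needed for endoderm, averaged 354 ± 14.2 CPM at 72 h and 663 ± 9.59 CPM at 48 h, 1.87-fold lower and so not called. EOMES, the T-box factor that starts the endoderm programme, measured 532, 463 and 439.6 CPM at 72 h and 527, 531 and 524 CPM at 48 h, and the groups overlapped. GSC and LHX1, factors of the anterior streak, were 1.27-fold and 1.68-fold higher at 72 h, below the threshold. FGF17 was the member called higher, at 323 ± 30.6 CPM at 72 h and 134 ± 4.17 CPM at 48 h. MESP1, a mesoderm factor, averaged 3.00 ± 0.383 CPM at 72 h and 6.00 ± 0.663 CPM at 48 h, just short of the threshold, and in settings that called it the list had 8 lower.

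Pluripotency genes moved in both directions over the same day, each by less than 2-fold. None of 26 was called in edgeR's quasi-likelihood test, and their median log2 fold change was -0.06. At adjusted p alone 11 were lower and 7 higher, where 20.7% of all genes were lower and 25.0% higher. NANOG averaged 126 ± 2.68 CPM at 72 h and 189 ± 4.25 CPM at 48 h, and POU5F1 999 ± 59.8 CPM at 72 h and 1287 ± 33.2 CPM at 48 h (SD, n = 3 each). Both are core factors of the pluripotent state, and neither reached the 2-fold threshold. Summed over the list, the libraries held 9427 to 9495 CPM at 72 h and 10030 to 10290 CPM at 48 h, lower in every library of 72 h.

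**Figure D3:**
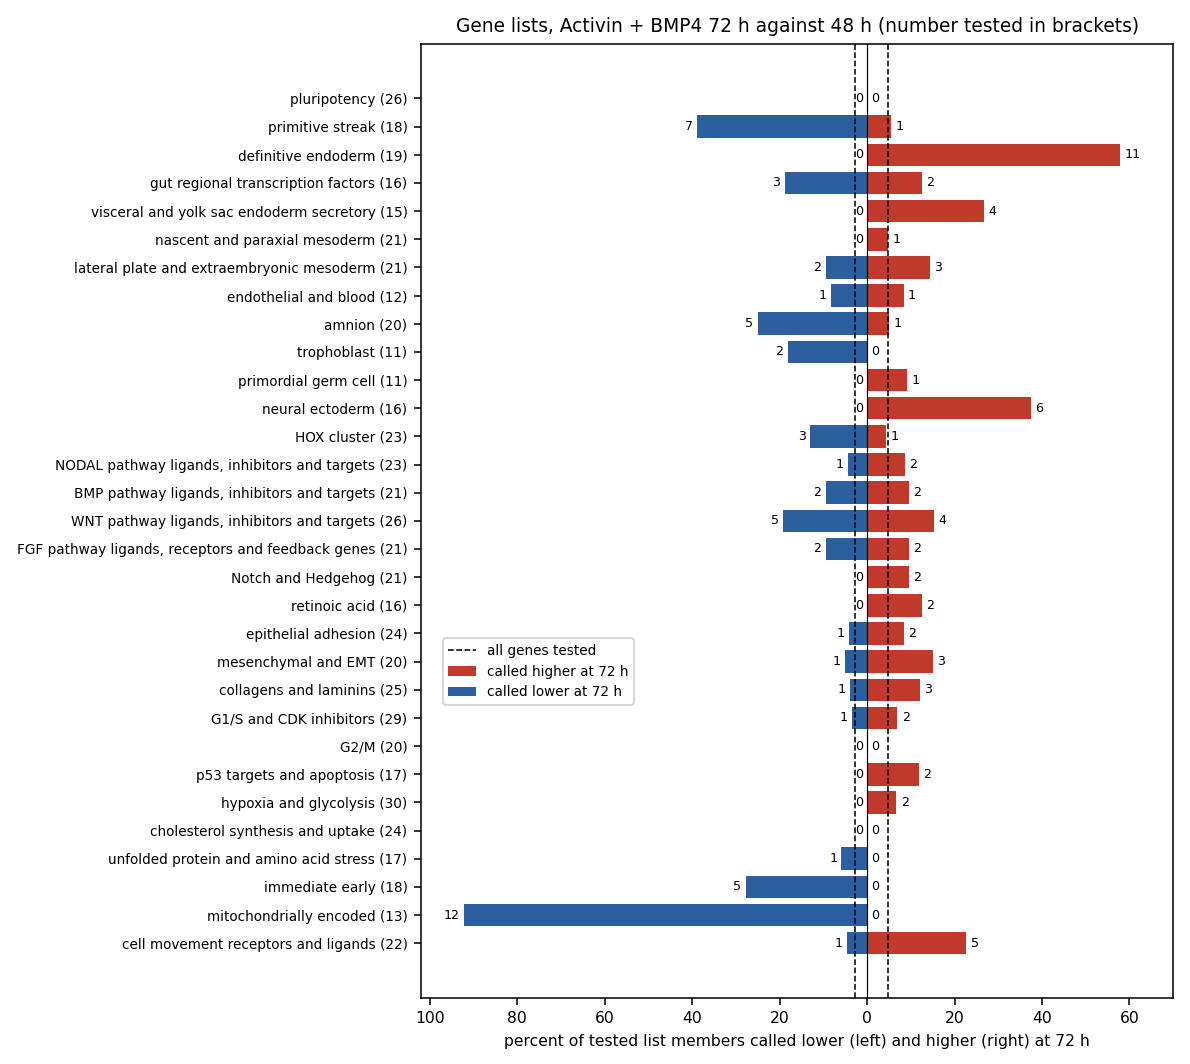
Bars give the share of each list's tested members called higher (red, right) or lower (blue, left) at 72 h, with the number called at the end of each bar and the number tested in brackets. Dashed lines mark the share over all genes tested, 4.81% higher and 2.88% lower, and the longest bars belong to definitive endoderm, with 11 of 19 called higher, and to the mitochondrially encoded mRNAs, with 12 of 13 called lower.

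Beyond the lists, the genes named for the largest increases were mostly low at 48 h. STMN2, a regulator of microtubules best known from neurons, measured 13.1, 14.1 and 14.1 CPM at 72 h and 0.236, 0.249 and 0.375 CPM at 48 h. C5, a complement component made by the liver, measured 20.2, 15.9 and 12.8 CPM at 72 h and 0.393, 0.624 and 0.638 CPM at 48 h. ERBB4, a receptor for neuregulins, measured 70.6, 67.8 and 68.6 CPM at 72 h and 2.91, 2.54 and 2.96 CPM at 48 h. All 3 were far above their level at 48 h in every library, with log2 fold changes of 5.56 (SE 0.26), 4.87 (SE 0.25) and 4.62 (SE 0.15) and edgeR quasi-likelihood adjusted p-values of 4.2e-21, 1.1e-19 and 1.65e-26. SLC40A1, the iron exporter ferroportin, rose 19.2-fold to 14.2 ± 0.726 CPM. VWF, a clotting protein otherwise typical of endothelium, rose 8.70-fold to 37.6 ± 3.18 CPM, and the axon guidance receptor PLXNA4 and the collagen COL23A1 rose 7.96-fold and 7.93-fold. PLCXD3, LRRN4 and RTN4RL1 rose between 9.23-fold and 9.72-fold, so that with HNF4A and CXCR4 the named 12 covered log2 fold changes of 2.99 to 7.05.

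Among the 12 named for the largest decreases were growth factors and their regulators. FGF19 fell to 1.91 ± 0.117 CPM at 72 h, against 10.3 ± 0.160 CPM at 48 h, and GREM1, a secreted BMP inhibitor, to 2.05 ± 0.756 CPM at 72 h, against 10.9 ± 0.376 CPM at 48 h (SD, n = 3 each). LEF1, a transcription factor of the WNT pathway, fell to 2.76 ± 0.289 CPM at 72 h, against 13.8 ± 0.622 CPM at 48 h. ANXA1 and GAD1 fell 4.36-fold and 4.34-fold. The 12 also held FGF4, EVX1, TBXT and the mitochondrially encoded MT-RNR1, MT-RNR2 and MT-ND1.

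In the NODAL pathway the ligand fell and its inhibitor LEFTY1 rose. NODAL measured 55.9, 46.7 and 35.4 CPM at 72 h, against 162, 160.1 and 146 CPM at 48 h. LEFTY1, a secreted inhibitor that NODAL signals switch on, measured 141, 143 and 107 CPM at 72 h and 24.9, 26.4 and 25.1 CPM at 48 h. Neither gene's groups overlapped, and the log2 fold changes were -1.77 (SE 0.10) and 2.35 (SE 0.11), with edgeR quasi-likelihood adjusted p-values of 1.58e-18 and 1.88e-21. LEFTY2, the neighbouring copy, averaged 35.7 ± 4.56 CPM at 72 h and 17.7 ± 0.478 CPM at 48 h, right at the threshold with a log2 fold change of 1.01, and it dropped below it in 5 of the other settings. LEFTY1 and LEFTY2 are near-identical, so reads may be split between them, and NODAL shares 41.2% of its exonic bases with an antisense gene. Of 23 members tested, only these 3 were called, 8.70% higher and 4.35% lower, against 4.81% and 2.88% of all genes tested.

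In the BMP, WNT and FGF lists members were called in both directions. Over all genes tested 4.81% were called higher and 2.88% lower. For BMP, 2 of 21 members were called higher and 2 lower. The ligand BMP5 rose to 1.07 ± 0.291 CPM at 72 h, against 0.118 ± 0.0362 CPM at 48 h, while GREM1 and the BMP target MSX1 fell. For WNT, 4 of 26 members were called higher and 5 lower. The secreted inhibitors FRZB and SFRP1 rose 6.76-fold and 2.95-fold, as did the receptor genes LGR5 and FZD8, whereas LEF1, SP5, WNT3A, WNT5B and the inhibitor DKK1 fell, DKK1 by just the 2-fold that a call needs, so that its call was lost in 4 settings. For FGF, the ligands FGF4 and FGF19 fell, and FGF17 and the MAP kinase phosphatase DUSP4 rose. DUSP4 measured 107, 111 and 114 CPM at 72 h and 22.6, 22.2 and 25.1 CPM at 48 h, evenly in every library, a log2 fold change of 2.24 (SE 0.06, adjusted p = 1.64e-28 by edgeR's quasi-likelihood test). IHH, a Hedgehog ligand of the gut epithelium, had 148 counts at 72 h and 1 count at 48 h over the 3 libraries of each, a ratio of 154.5 with a 95% interval of 27.3 to 6140 that covers counting error only. CYP26A1, which degrades retinoic acid, averaged 432 ± 57.4 CPM at 72 h and 117 ± 7.71 CPM at 48 h.

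Genes of the cell surface and matrix changed in part. VIM, an intermediate filament protein, averaged 591 ± 50.0 CPM at 72 h and 249 ± 7.96 CPM at 48 h, and COL5A2, a fibrillar collagen chain, 937 ± 21.4 CPM at 72 h and 348 ± 11.8 CPM at 48 h (SD, n = 3 each). VIM overlaps an antisense gene over 12.4% of its exonic bases. Of 25 collagens and laminins 3 were called higher, the others being COL4A1 and COL4A2 of the basement membrane, and 1 was called lower. Among 22 receptors and ligands of cell movement 5 were called higher, CXCR4 and the related receptor ACKR3 at their head, and 1 lower, KITLG, the ligand of KIT.

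Marker lists of other cell types gave mixed counts, some of them near the 4.81% of all genes called higher and 2.88% called lower. Of 20 amnion genes 5 were called lower and 1 higher, and the summed level was 134.2 to 157 CPM at 72 h and 180.0 to 196.3 CPM at 48 h, lower in every library of 72 h. Of 21 nascent and paraxial mesoderm genes 1 was called higher and none lower, at sums of 394.3 to 441.4 CPM at 72 h and 431.5 to 448.4 CPM at 48 h that overlapped. Of 21 lateral plate and extraembryonic mesoderm genes 3 were called higher and 2 lower. Of 15 tested visceral and yolk sac endoderm genes 4 were called higher, among them CUBN, a receptor for proteins taken up from the gut, at 6.80 ± 1.73 CPM at 72 h and 1.63 ± 0.173 CPM at 48 h (SD, n = 3 each), and the apolipoproteins APOA1 and APOA2. Of 16 neural ectoderm genes 6 were called higher, but only 2 to 5 with a single library left out and 2 without replicate 3 of 72 h. They were PAX6, OTX2, LHX2, RAX, NCAM1 and DLK1, and each of them other than PAX6 lost its call in at least 1 setting. OTX2 is also on the gut list. PAX6 overlaps ELP4 over 25.2% of its exonic bases. The endothelial and blood, trophoblast and germ cell lists had at most 2 members called in either direction, and their summed levels did not overlap between the times. Such separation was common: it held for 27.4% of all single genes tested with 72 h higher and for 23.2% with 72 h lower. A sum also follows its most abundant members. Endothelial and blood genes summed to 346.5 to 419.1 CPM at 72 h and 534.7 to 555.7 CPM at 48 h. Trophoblast genes summed to 109.3 to 117.2 CPM at 72 h and 128.4 to 135.4 CPM at 48 h. Germ cell genes, a list that overlaps the endoderm list, summed to 348.6 to 450.1 CPM at 72 h and 237.7 to 252.5 CPM at 48 h. With a single library left out, germ cell genes called higher ran from 0 (without replicate 1 of 72 h, or replicate 1 or 2 of 48 h) to 3 (without replicate 3 of 72 h), against 1 with all libraries. The 1 was DPPA3, whose call was lost in 7 settings. Without replicate 3 of 72 h, KIT and PRDM1, both given above under endoderm, gained their calls. Trophoblast genes called lower ran from 1 (without replicate 3 of 72 h) to 3, against 2 with all libraries, and the endothelial gene called lower was lost without replicate 2 or 3 of 72 h or replicate 2 of 48 h. Lateral plate and extraembryonic mesoderm genes summed to 488.8 to 598 CPM at 72 h and 666.5 to 679.4 CPM at 48 h. Visceral and yolk sac endoderm genes summed to 370 to 394.3 CPM at 72 h and 267.6 to 287.2 CPM at 48 h. Neural ectoderm genes summed to 723.6 to 742.5 CPM at 72 h and 648.1 to 684.7 CPM at 48 h. Whether any of these sums reflects the makeup of the cultures was not tested, nor was their part in the other results.

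No gene of mitosis or cholesterol synthesis was called, whereas immediate early and mitochondrially encoded genes were often called lower. None of 20 mitosis genes and none of 24 cholesterol synthesis genes was called in edgeR's quasi-likelihood test, against 11 and 10 at adjusted p alone. Of those 11 mitosis genes 10 were higher and 1 lower, and of the 10 cholesterol synthesis genes 2 were higher and 8 lower. Over all genes tested 25.0% were higher and 20.7% lower at adjusted p alone. Of 29 genes of the G1/S step MYC was called lower, at 47.8 ± 6.48 CPM at 72 h and 111 ± 2.69 CPM at 48 h, and the inhibitors CDKN1C and CDKN2C were called higher. At adjusted p alone 18 of the 29 were lower and 6 higher, against the same 20.7% and 25.0% of all genes. Their summed level was 3189 to 3246 CPM at 72 h and 3962 to 4048 CPM at 48 h. Of 18 immediate early genes 5 were called lower, namely CCN2, CCN1, FOS, EGR1 and JUN, where 2.88% of all genes were. All 13 mitochondrially encoded mRNAs were lower at 72 h in every library and 12 were called. The mitochondrial ribosomal RNA MT-RNR1 fell to 182 ± 59.3 CPM at 72 h, against 1349 ± 465 CPM at 48 h.

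The genes called higher were mostly still climbing. Of the 943, 799 (84.7%) had a higher mean at 96 h than at 72 h and 753 (79.9%) had their highest mean of the whole course at 96 h, whereas 108 (11.5%) were highest at 72 h. HNF4A reached 77.8 ± 16.1 CPM at 96 h and CXCR4 155 ± 48.2 CPM (SD, n = 3 each). Among the 565 called lower, 299 (52.9%) had a still lower mean at 96 h and 255 (45.1%) a higher one. Their highest means fell at 48 h for 161 genes (28.5%) and as early as 1 h for 146 (25.8%). TBXT went on to 10.4 ± 2.89 CPM at 96 h, while NODAL stood at 89.8 ± 13.8 CPM at 96 h, above its level at 72 h. These shares rest on group means without a test, and the same shares over all genes tested were not computed.

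**Figure D4:**
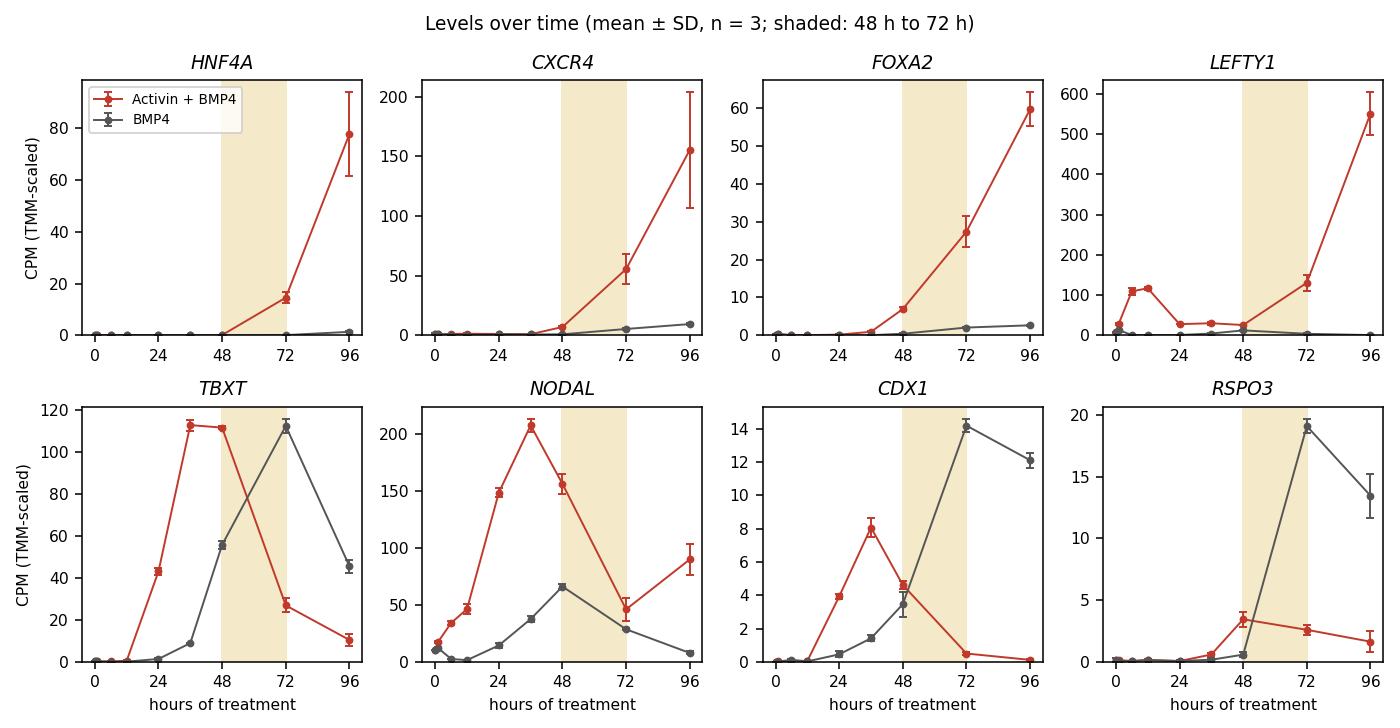
Lines join the mean level (CPM, ± SD, n = 3) from the untreated cells at 0 h to 96 h, in red for Activin with BMP4 and in grey for BMP4 alone, and the shaded band spans 48 h to 72 h. HNF4A, CXCR4 and FOXA2 climb through and beyond the band with Activin and BMP4, while TBXT falls there to 26.9 CPM and rises to 112 CPM with BMP4 alone.

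Part of the change differed from that with BMP4 alone. Over the same day BMP4 cultures had 767 genes called higher (3.91%) and 297 lower (1.52%), 5.43% of those tested. The conditions share no library at these times. Of the 943 genes higher with Activin and BMP4, 222 were also called higher with BMP4, 23.5% of the first list and 28.9% of the second. Of the 565 lower genes 89 were shared, 15.8% of the first list and 30.0% of the second, and 31 (5.49%) were called higher with BMP4 instead. In the test of the difference between the changes, 1048 genes (5.35%) were called, 482 (2.46%) with the higher change under Activin and BMP4 and 566 (2.89%) with the lower. They included 301 (31.9%) of the genes higher and 179 (31.7%) of the genes lower with Activin and BMP4.

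Of 19 endoderm genes, 14 were called higher with BMP4, where 3.91% of all genes were, and 9 were called higher in both conditions. In the test of the difference 1 member had a higher change with Activin and BMP4 and 4 a lower one. CXCR4 averaged 5.31 ± 0.608 CPM at 72 h with BMP4 and 0.828 ± 0.162 CPM at 48 h, so its change differed by 0.33 on the log2 scale (SE 0.39, adjusted p = 0.596 by edgeR's quasi-likelihood test). GATA4 rose to 27.6 ± 4.22 CPM at 72 h with BMP4, against 1.92 ± 0.175 CPM at 48 h, and its change was lower with Activin and BMP4 by 2.42 on the log2 scale (SE 0.18). HNF4A was at 0.0761 ± 0.0424 CPM in the BMP4 libraries of 72 h and at 0 counts in those of 48 h, a level too low to estimate the difference.

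The largest differences upward were in SLC40A1, C5, LEFTY1 and STMN2, at 4.56, 4.18, 4.06 and 3.61 on the log2 scale. LEFTY1 rose with Activin and BMP4 but fell with BMP4 alone, to 3.71 ± 1.33 CPM at 72 h, against 12.2 ± 0.512 CPM at 48 h. SLC40A1 with BMP4 was at 9.81 ± 0.723 CPM at 72 h and 12.0 ± 0.644 CPM at 48 h, a decrease that was not called. CLDN10, a claudin of tight junctions, was 1.37-fold lower with Activin and BMP4 and fell with BMP4 to 22.8 ± 3.02 CPM at 72 h, against 340.4 ± 12.2 CPM at 48 h. It shares 46.1% of its exonic bases with DZIP1 on the opposite strand. The semaphorins SEMA3E and SEMA3D rose 3.11-fold and 2.40-fold with Activin and BMP4 and fell with BMP4.

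The largest differences downward were genes that rose with BMP4 and not with Activin and BMP4. RSPO3, a secreted WNT agonist, averaged 2.59 ± 0.403 CPM at 72 h and 3.44 ± 0.604 CPM at 48 h with Activin and BMP4, and 19.1 ± 0.582 CPM at 72 h and 0.581 ± 0.180 CPM at 48 h with BMP4, a difference of -5.44 (SE 0.42, adjusted p = 8.65e-14 by edgeR's quasi-likelihood test). COL3A1, a fibrillar collagen of mesenchyme, was under 0.6 CPM in all 6 Activin and BMP4 libraries and reached 55.2 ± 2.57 CPM at 72 h with BMP4. SNAI2, a repressor of epithelial genes, and CDX1 differed by -4.81 and -5.25. Of 21 nascent and paraxial mesoderm genes 14 had a lower change with Activin and BMP4 and none a higher one, and 15 were called higher with BMP4 alone. TBXT took opposite directions: it fell with Activin and BMP4 and rose with BMP4 to 112 ± 3.34 CPM at 72 h, against 55.7 ± 1.98 CPM at 48 h, a difference of -3.07 (SE 0.13, adjusted p = 1.31e-21 by edgeR's quasi-likelihood test).

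**Figure D5:**
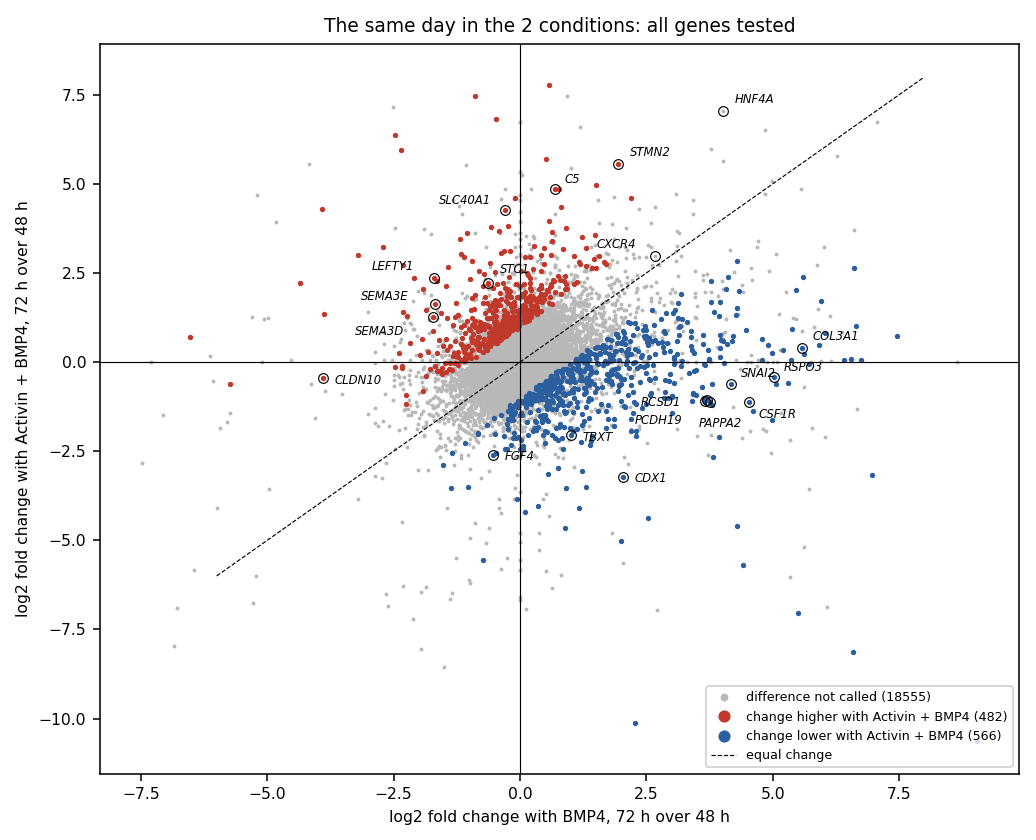
Each point is a gene, with its log2 fold change, 72 h over 48 h, under Activin with BMP4 on the vertical axis and under BMP4 alone on the horizontal axis. Red and blue mark the 482 and 566 genes whose changes differed between the conditions, circles mark the named genes, and the dashed line is equal change, near which CXCR4 lies.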

How the data were processed

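The deposited file held whole-number counts per gene for 51 libraries of total RNA. Per the submitters' processing notes, cutadapt 1.5, STAR 2.5.2a, RSEM 1.3.0 and GRCh38 were used; the annotation release, the strand setting and whether the authors' counts are rounded RSEM estimates are not given in the sources used here. Of 58051 gene rows, 19603 passed edgeR's filterByExpr (minimum count 10, minimum total 15) and held 99.95% of counts. The 6 libraries held 22.8 to 27.2 M counts with TMM factors of 0.981 to 1.02.

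Counts of all 51 libraries, in 17 groups of 3 taken from the labels, were fitted together with edgeR 4.0.16 in R 4.3.3 (quasi-likelihood, no covariate), so that groups shared one estimate of spread. The contrasts were 72 h over 48 h in each condition and the difference of these. A gene was called at an adjusted p under 0.05 and a 2-fold change. The method was tested on simulated data. Genes were named by rule: the 12 highest and 12 lowest called changes with at least 10 CPM and no overlap of libraries, the 8 highest and 8 lowest differences, a panel of 36 fate genes, and up to 6 members of each of 31 lists. Some genes that these rules pick are not reported here. Other list members were named where a count needed them. The members and lists were chosen with earlier results of these data known. Other scaling factors, filters, DESeq2 1.42.0, a replicate term, fewer groups and single libraries left out were tried. Exon overlaps were read from the GENCODE annotation. Promoter windows came from RefSeq, GRCh38.p14.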

Additional observations from a re-analysis of the deposited data

Results flagged for a closer look

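For 16 named genes the change over the day, 72 h over 48 h, differed between Activin with BMP4 and BMP4 alone by the test of the difference itself, given here on the log2 scale as the first change minus the second. The higher changes with Activin and BMP4 were those of SLC40A1 (4.56), C5 (4.18), LEFTY1 (4.06), STMN2 (3.61), CLDN10 (3.44), SEMA3E (3.32), SEMA3D (2.98) and STC1 (2.84). STC1, which encodes the secreted hormone stanniocalcin, averaged 123 ± 12.4 CPM at 72 h and 26.5 ± 0.621 CPM at 48 h with Activin and BMP4, and 10.96 ± 0.353 CPM at 72 h and 16.9 ± 1.12 CPM at 48 h with BMP4 (SD, n = 3 each).

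The lower changes were those of PCDH19 (-4.75), RCSD1 (-4.77), SNAI2 (-4.81), PAPPA2 (-4.89), COL3A1 (-5.20), CDX1 (-5.25), RSPO3 (-5.44) and CSF1R (-5.66). PCDH19, a cell adhesion protein, averaged 2.37 ± 0.271 CPM at 72 h and 5.03 ± 0.439 CPM at 48 h with Activin and BMP4, and 46.2 ± 5.30 CPM at 72 h and 3.65 ± 0.179 CPM at 48 h with BMP4 (SD, n = 3 each). The value of CSF1R, a receptor of macrophages and trophoblast, rests on 2 counts at 72 h and 5 counts at 48 h over the Activin and BMP4 libraries. Without Activin and BMP4 replicate 1 of 48 h its difference was -4.98 and no longer called.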

How the results depend on the processing

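The count of genes called between 72 h and 48 h was 1502 with RLE factors, 1531 with no scaling factors, 1713 with no filter, 1192 with a stricter filter, 1393 with DESeq2 and 1350 with only the groups compared. It ran from 1283 to 1610 with a single library left out, with 803 to 1012 genes higher and 478 to 598 lower. For BMP4 alone the range was 981 to 1066 genes (710 to 761 higher, 261 to 305 lower), and for the difference between the conditions 946 to 1157 (418 to 559 higher, 515 to 598 lower). Gene by gene, the settings were run for 145 genes: those with the largest changes, the fate panel, all called members of the lists and the whole definitive endoderm list. Together with the 16 differences between the conditions, 2104 values kept their direction and side of the threshold, 68 lost their call, 15 gained one and none reversed.

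With the replicate block 1501 genes were called (937 higher, 564 lower), and 1483 of the 1508 calls were kept in direction. No pairing of the samples by replicate number was seen: deviations of same-numbered libraries at 72 h and 48 h correlated at 0.0283, -0.399 and -0.0621. Not every sample correlated best with its own number. With 3 libraries per group these values cannot settle whether the cultures were paired. Of the 145 genes, 20 lost their call between 72 h and 48 h in at least 1 setting, namely COL4A2, DKK1, DLK1, DPPA3, FZD8, HES4, HOXB2, JUN, KRT17, LEFTY2, LHX2, NCAM1, OTX2, PAPPA, RARB, RAX, SLC7A11, SOX7, TJP3 and VTN, and 4 gained one, namely KIT, MESP1, PRDM1 and SHISA2. Without replicate 3 of 72 h, JUN had a log2 fold change of -0.99. Genes at a few counts, such as IHH and CSF1R, are limited by depth.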
